A study of Rattus norvegicus with 16 samples.

Results

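Genes that build, store and release neutral fat were compared across 4 rat tendons. The list held 34 genes, taken by symbol from a table of read counts for 23285 genes. Of these, 32 were found there and 30 passed the filter on low counts. Mlxipl, which encodes the carbohydrate-responsive lipogenic factor ChREBP, and Cd36, a fatty acid transporter, were not analysed here. Elovl6, an elongase of saturated fatty acids, had 0 to 12 counts per library and did not pass the filter. Pnpla2, which encodes the first lipase of triglyceride breakdown, had 0 to 3 counts per library and did not pass either. Why Pnpla2 was so low in all 16 libraries was not tested.

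The study sequenced RNA from the forepaw flexor, supraspinatus, Achilles and patellar tendons of Sprague Dawley rats, with 4 libraries for each tendon and no treatment. Its stated aim was to compare mRNA levels between each pair of these tendons. Flexor and supraspinatus are forelimb tendons, and Achilles and patellar are hindlimb tendons. The labels give every tendon the numbers 1 to 4 after the word Rat. They do not state whether a number stands for the same rat in every tendon, so p-values measure the spread between these libraries.

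Fat cells make fatty acids from glucose-derived citrate, join them to glycerol as triglyceride, coat the droplet with perilipins, and release the fatty acids again through a chain of lipases. SREBP-1, encoded by Srebf1, and C/EBPα, encoded by Cebpa, switch on much of this programme. Skeletal muscle uses part of the same set for oxidation, with its own forms of some enzymes and droplet proteins. Tendon fibroblasts are not known as lipid-storing cells, and fat lies around and within many tendons.

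Library totals ran from 63397591 to 102491699 counts, with the 4 patellar libraries lowest. The tendon genes Scx and Tnmd were detected in every library, Scx with at least 640 counts and Tnmd with at least 21213. The 16 adipocyte markers, none of them on the lipid list, summed to 648.5 to 1212 CPM in flexor and 535.8 to 1397 CPM in supraspinatus libraries, against 4021 to 14830 CPM in Achilles and 6097 to 15840 CPM in patellar libraries. CPM is the usual depth-scaled count, here relative to library sizes scaled by TMM. The 16 skeletal muscle markers measured summed to 14810 to 55580 CPM in flexor and 122300 to 228400 CPM in supraspinatus, against 326.4 to 10710 CPM in Achilles and 316.5 to 29510 CPM in patellar libraries. In such bulk samples, fewer cells of a type and less RNA per cell cannot be told apart.

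Promoter windows from RefSeq on build GRCr8, each the 250 bases before the annotated start, were held for 24 of the 34 genes. They were searched on both strands for CCAAT, bound by NF-Y; CACGTG, an E-box; TCACNCCAC, the classic SREBP element; TATAAA, the TATA box; and TTGCNNAA, a C/EBP site. CCAAT lay in 13 of the 24 windows, beside 34% of all 33469 windows, and CACGTG in 3 of 24, beside 5.59%. TATAAA lay in 2 windows, beside 12.9% of all, and TTGCNNAA in 1, beside 9.22%. TCACNCCAC lay in 0 of the 24 and in 0.974% of all windows. No match overlapped another motif. A match is a description of letters and does not show a bound site. Thrsp, Pnpla3 and Mgll are shown as examples with RNA lower in both forelimb tendons, and Acacb as an example with RNA higher there. Other genes lower in both, such as Agpat2, Cidea and Abhd5, had windows without CCAAT and are not shown. The 4 windows therefore do not stand for the list. Capitals mark CCAAT or its reverse complement in all 4 windows, and in Mgll also CACGTG.
Thrsp, chr1:161138965-161139214, minus strand: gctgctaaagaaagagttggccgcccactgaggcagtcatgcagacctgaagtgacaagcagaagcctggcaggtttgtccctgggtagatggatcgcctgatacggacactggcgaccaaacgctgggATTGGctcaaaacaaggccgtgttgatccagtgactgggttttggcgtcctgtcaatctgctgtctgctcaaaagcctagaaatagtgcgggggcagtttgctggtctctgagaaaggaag
Pnpla3, chr7:117173278-117173527, plus strand: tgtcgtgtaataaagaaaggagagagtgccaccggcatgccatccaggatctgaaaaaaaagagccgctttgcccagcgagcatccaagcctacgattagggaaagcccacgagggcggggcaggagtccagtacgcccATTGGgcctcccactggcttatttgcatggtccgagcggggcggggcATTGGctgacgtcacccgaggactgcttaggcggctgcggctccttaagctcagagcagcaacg
Mgll, chr4:122749186-122749435, plus strand: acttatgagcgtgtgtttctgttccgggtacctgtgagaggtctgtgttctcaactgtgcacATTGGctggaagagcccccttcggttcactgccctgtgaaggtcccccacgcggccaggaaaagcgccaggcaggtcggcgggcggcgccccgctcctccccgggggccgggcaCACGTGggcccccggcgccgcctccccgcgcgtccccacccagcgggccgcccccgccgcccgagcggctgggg
Acacb, chr12:48138215-48138464, minus strand: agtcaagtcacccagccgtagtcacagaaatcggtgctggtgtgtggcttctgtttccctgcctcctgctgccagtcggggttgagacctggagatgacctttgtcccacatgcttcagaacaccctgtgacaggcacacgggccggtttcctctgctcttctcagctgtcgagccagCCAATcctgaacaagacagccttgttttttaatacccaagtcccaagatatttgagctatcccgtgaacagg
All 4 windows shown carried CCAAT, first found 121 bases before the start in Thrsp, 111 in Pnpla3, 188 in Mgll and 72 in Acacb. CACGTG stood 74 bases before the start in Mgll. Among genes with a window, CCAAT was found in 8 of 14 that were lower in the forelimb tendons and in 3 of 4 that were higher.

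The lipid genes were mostly lower in the forelimb tendons. In the average of flexor and supraspinatus over the average of Achilles and patellar, 22 of the 30 tested genes were lower, 5 were higher and 3 did not pass the test. Across all 16948 genes tested, 58.8% were called in this comparison, 28.5% lower and 30.3% higher. The median log2 fold change was -1.41 for the lipid genes and 0.02 for all genes. Among the 4 tendons, 27 of 30 lipid genes differed, beside 75.6% of all genes. The 5 higher genes were Acacb, Me1, Gpam, Slc2a4 and Plin5, and the 3 without a call were Lpin1, Plin2 and Plin4. Tests were edgeR's quasi-likelihood test with Benjamini-Hochberg adjustment over all genes, and a call is an adjusted p under 0.05.

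**Figure D1:**
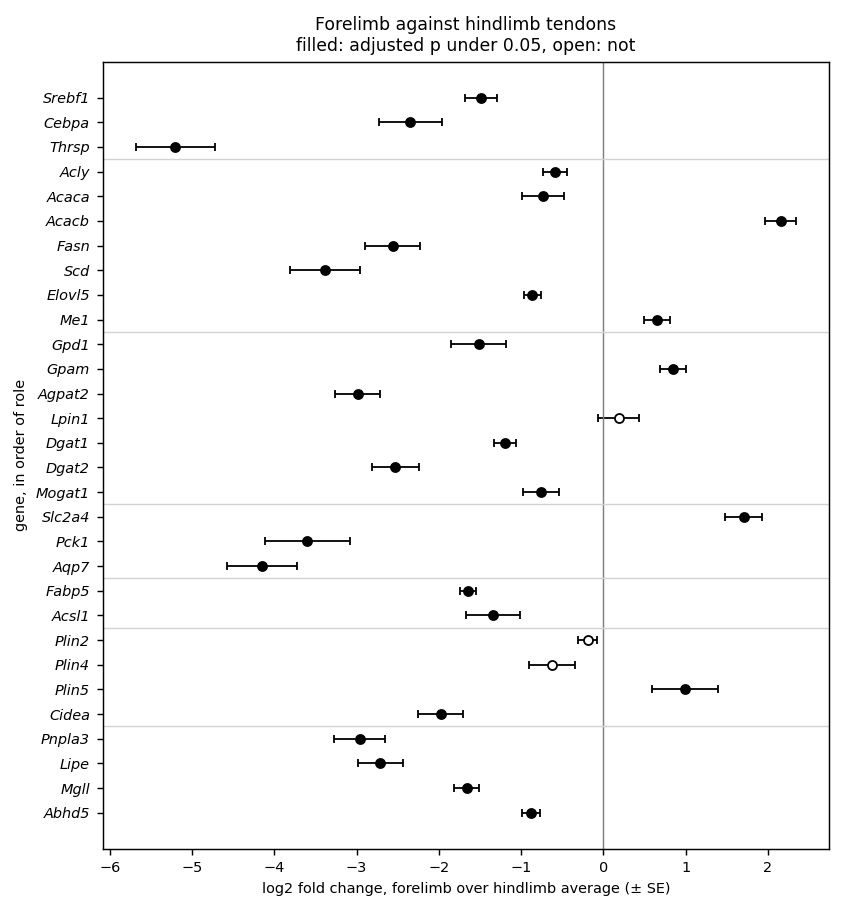
Log2 fold change of each tested lipid gene, forelimb average over hindlimb average (horizontal axis), with 1 standard error, grouped by role. Values run from -5.20 for Thrsp to 2.16 for Acacb, with 22 genes called lower and 5 called higher.

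All 3 transcriptional regulators measured were lower in the forelimb. Thrsp encodes Spot 14, a nuclear protein induced with fat synthesis in liver and adipose tissue. Thrsp had 28, 39, 31.8 and 60.1 CPM in the flexor libraries and 2.73, 2.74, 12.1 and 12.7 CPM in the supraspinatus libraries, against 730.1, 542, 655 and 199 CPM in the Achilles and 549, 1184, 1071 and 272 CPM in the patellar libraries. Every forelimb library was below every hindlimb library, and within the forelimb all 4 flexor libraries were above all 4 supraspinatus libraries. The log2 fold change of the forelimb average over the hindlimb average was -5.20 ± 0.48 (SE, adjusted p = 6.78e-07), the largest decrease on the list. Flexor over supraspinatus was 2.39 ± 0.60 (adjusted p = 0.00447).

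Srebf1 had 110.4, 109, 124 and 139 CPM in the flexor libraries and 105, 97.4, 115 and 152 CPM in the supraspinatus libraries, against 472, 282, 299 and 186 CPM in the Achilles and 454, 410.5, 365 and 204 CPM in the patellar libraries. The forelimb libraries did not overlap the hindlimb ones, and the lowest hindlimb libraries were Achilles 4 and patellar 4. The forelimb log2 fold change was -1.48 ± 0.19 (adjusted p = 1.33e-05), and the flexor and supraspinatus libraries overlapped. Cebpa averaged 8.05 ± 5.9 CPM in flexor libraries and 0.89 ± 0.563 CPM in supraspinatus libraries, against 9.88 ± 1.43 CPM in Achilles libraries and 18.6 ± 5.32 CPM in patellar libraries (SD, n = 4 each). The supraspinatus libraries were below all others, whereas the flexor libraries spanned the Achilles range. Its log2 fold change was -2.35 ± 0.38 for forelimb over hindlimb (adjusted p = 0.000103) and 3.19 ± 0.57 for flexor over supraspinatus (adjusted p = 0.000346).

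Of the 7 fatty acid synthesis genes tested, 5 were lower and 2 higher in the forelimb. Scd, the desaturase that puts the first double bond into saturated fatty acids, gave the widest contrast between tendons. Scd had 879, 505, 432 and 822 CPM in the flexor libraries and 5.66, 4.92, 11.3 and 8.03 CPM in the supraspinatus libraries, against 2095, 1363, 1533 and 481 CPM in the Achilles and 227, 654, 609 and 80.7 CPM in the patellar libraries. All 4 supraspinatus libraries lay far below the other 12, the flexor libraries lay within the span of the hindlimb ones, and patellar 4 was the lowest hindlimb library. The log2 fold change was 6.46 ± 0.70 for flexor over supraspinatus (adjusted p = 7.2e-06), -7.52 ± 0.73 for supraspinatus over Achilles (adjusted p = 3.62e-06) and -5.71 ± 0.67 for supraspinatus over patellar (adjusted p = 9.92e-06). Flexor did not differ from the hindlimb tendons past the threshold, with -1.05 ± 0.56 over Achilles (adjusted p = 0.134) and 0.75 ± 0.55 over patellar (adjusted p = 0.274). The forelimb value of -3.38 ± 0.43 (adjusted p = 1.06e-05) therefore averages 2 unlike tendons. Scd has a close paralog, Scd2, and how the authors' counting divided shared reads is not given in the sources used here.

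Acacb encodes the acetyl-CoA carboxylase of the mitochondrial surface, whose malonyl-CoA restrains fatty acid entry into mitochondria and which is typical of muscle and heart. Acacb had 80.5, 58.1, 48.2 and 64.9 CPM in the flexor libraries and 119.7, 139, 82.1 and 171 CPM in the supraspinatus libraries, against 19, 22, 19.2 and 19 CPM in the Achilles and 31, 22.6, 14.7 and 13.5 CPM in the patellar libraries. All 8 forelimb libraries were above all 8 hindlimb ones, and supraspinatus 4 was the highest. Forelimb over hindlimb, the log2 fold change was 2.16 ± 0.19 (adjusted p = 4.17e-07), and flexor over supraspinatus was -1.02 ± 0.26 (adjusted p = 0.00448). Acaca, the cytosolic carboxylase that feeds fatty acid synthesis, went the other way, with 20.3 ± 1.53 CPM in flexor libraries and 12.7 ± 1.33 CPM in supraspinatus libraries, against 20.8 ± 5.54 CPM in Achilles libraries and 34.3 ± 22.1 CPM in patellar libraries (SD, n = 4 each). Its forelimb log2 fold change of -0.74 ± 0.26 (adjusted p = 0.0223) lost its call when Achilles 3, patellar 2 or patellar 3 was left out (-0.66 to -0.59, adjusted p = 0.0501 to 0.057). The patellar libraries ran from 14.5 to 54.6 CPM.

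Fasn, the fatty acid synthase, averaged 132 ± 26.8 CPM in flexor libraries and 51.7 ± 6.48 CPM in supraspinatus libraries, against 452 ± 180.5 CPM in Achilles libraries and 529.6 ± 368 CPM in patellar libraries (SD, n = 4 each). Its forelimb log2 fold change was -2.56 ± 0.34 (adjusted p = 1.5e-05). Flexor over supraspinatus was 1.36 ± 0.46 (adjusted p = 0.024), a call lost without flexor 3, flexor 4 or supraspinatus 4 (1.21 to 1.36, adjusted p = 0.0534 to 0.0662). Acly, which makes cytosolic acetyl-CoA from citrate, fell in the forelimb by a smaller step, with a log2 fold change of -0.59 ± 0.14 (adjusted p = 0.00271). Elovl5, an elongase of polyunsaturated fatty acids, ran from 69 to 78.1 CPM in flexor and 67.9 to 77.6 CPM in supraspinatus, against 103 to 190.4 CPM in Achilles and 94.5 to 132 CPM in patellar libraries. These ranges did not overlap between the limbs, and the log2 fold change was -0.86 ± 0.11 (adjusted p = 9.83e-06).

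Me1, the malic enzyme that supplies NADPH, had 62.8, 50.2, 33.4 and 60.0 CPM in the flexor libraries and 71.5, 47.8, 69.6 and 85.5 CPM in the supraspinatus libraries, against 45.5, 33.7, 40.0 and 25 CPM in the Achilles and 38.4, 39.9, 46.5 and 34.7 CPM in the patellar libraries. All 4 supraspinatus libraries were above every hindlimb library, while flexor 3 lay inside the hindlimb range. Its log2 fold change in the forelimb was 0.65 ± 0.16 (adjusted p = 0.00229).

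**Figure D2:**
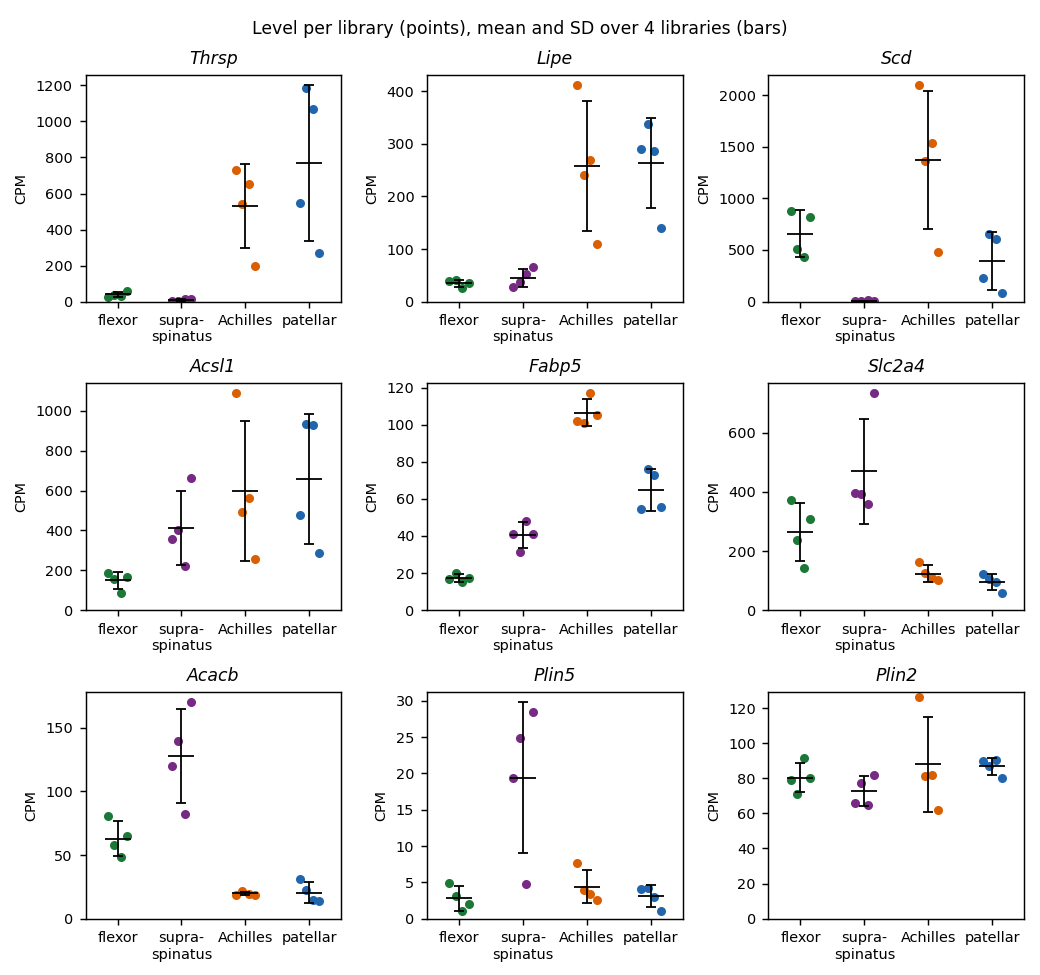
CPM per library (vertical axis, linear from 0) of 9 lipid genes in flexor, supraspinatus, Achilles and patellar tendon; points are libraries and bars are means with SD of 4 libraries. Thrsp and Lipe are lower in both forelimb tendons, Scd is low in supraspinatus, Acsl1 and Fabp5 are lowest in flexor, and Slc2a4 and Acacb are higher in both forelimb tendons.

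Of the 7 glyceride assembly genes, 5 were lower, 1 higher and 1 not called in the forelimb. Agpat2 encodes the acyltransferase whose loss causes lipodystrophy in humans. Agpat2 had 20.7, 24.1, 24.3 and 28.6 CPM in the flexor libraries and 8.14, 10.1, 7.86 and 12.3 CPM in the supraspinatus libraries, against 166, 105, 124 and 48.4 CPM in the Achilles and 97.6, 188, 185 and 61 CPM in the patellar libraries. All forelimb libraries were below all hindlimb libraries, and the flexor libraries were above the supraspinatus ones. The log2 fold change was -2.99 ± 0.27 for the forelimb (adjusted p = 5.76e-07) and 1.35 ± 0.36 for flexor over supraspinatus (adjusted p = 0.00702).

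Dgat1, which adds the last acyl chain of triglyceride, had 43.9, 45.4, 48.9 and 50.5 CPM in the flexor libraries and 32.3, 29.5, 26.4 and 28.2 CPM in the supraspinatus libraries, against 88.6, 76.8, 93.8 and 58.7 CPM in the Achilles and 64.3, 111, 121 and 67.3 CPM in the patellar libraries. Again no forelimb library reached the hindlimb range, and the 4 supraspinatus libraries were the lowest. The forelimb log2 fold change was -1.20 ± 0.14 (adjusted p = 4.6e-06), with 0.70 ± 0.19 for flexor over supraspinatus (adjusted p = 0.00834). Dgat2, the unrelated enzyme of the same step, averaged 83.2 ± 17.8 CPM in flexor libraries and 57.2 ± 22.6 CPM in supraspinatus libraries, against 329.5 ± 121 CPM in Achilles libraries and 483 ± 248 CPM in patellar libraries (SD, n = 4 each), a forelimb log2 fold change of -2.53 ± 0.29 (adjusted p = 3.95e-06).

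Gpd1, which makes glycerol 3-phosphate from a glycolytic intermediate, was low in flexor alone among the 4 tendons. It averaged 123 ± 34.5 CPM in flexor libraries and 711 ± 204 CPM in supraspinatus libraries, against 854 ± 600.4 CPM in Achilles libraries and 834 ± 340.1 CPM in patellar libraries (SD, n = 4 each). All 4 flexor libraries were below the other 12. Flexor over supraspinatus was -2.53 ± 0.49 (adjusted p = 0.000654), flexor over Achilles -2.80 ± 0.49 (adjusted p = 0.00036) and flexor over patellar -2.76 ± 0.49 (adjusted p = 0.000339). For supraspinatus over Achilles (adjusted p = 0.657) and over patellar (adjusted p = 0.692) the difference missed the threshold. Its forelimb log2 fold change was -1.51 ± 0.33 (adjusted p = 0.00125).

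Gpam, the mitochondrial enzyme of the first acylation of glycerol 3-phosphate, had 61.2, 50.6, 40.1 and 49.2 CPM in the flexor libraries and 47.4, 48.8, 28.1 and 66.4 CPM in the supraspinatus libraries, against 24.3, 27.5, 23.1 and 28.1 CPM in the Achilles and 20.2, 30.6, 36.4 and 27.4 CPM in the patellar libraries. Flexor libraries were above all hindlimb libraries, and supraspinatus 3 fell inside the hindlimb range. Forelimb over hindlimb, the log2 fold change was 0.85 ± 0.16 (adjusted p = 0.000314).

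Lpin1, a phosphatidate phosphatase and transcriptional coactivator, had 56, 41.6, 27.7 and 43.5 CPM in the flexor libraries and 69.8, 68.5, 50.8 and 97.5 CPM in the supraspinatus libraries, against 51.7, 52.5, 51 and 20.8 CPM in the Achilles and 43.2, 72.3, 71.6 and 24.7 CPM in the patellar libraries. The 4 tendons overlapped, with low values in flexor 3, Achilles 4 and patellar 4 and the highest in supraspinatus 4. No difference among the tendons passed the test (adjusted p = 0.175), and the forelimb log2 fold change was 0.19 ± 0.25 (adjusted p = 0.538), or -0.07 with library totals in place of TMM. Mogat1, a monoacylglycerol acyltransferase, stayed between 0.31 and 1.08 CPM in all libraries and had a forelimb log2 fold change of -0.76 ± 0.22 (adjusted p = 0.00853).

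The glucose and glycerol supply genes split 1 higher and 2 lower. Slc2a4 encodes GLUT4, the insulin-responsive glucose carrier of muscle and fat. Slc2a4 had 374, 237, 143 and 307 CPM in the flexor libraries and 396, 392, 358 and 735 CPM in the supraspinatus libraries, against 162, 125, 108 and 101 CPM in the Achilles and 122, 106, 95.1 and 56.7 CPM in the patellar libraries. Supraspinatus 4 stood above all other libraries, and flexor 3, the flexor library with the lowest muscle marker sum, lay inside the Achilles range. Its log2 fold change in the forelimb was 1.70 ± 0.22 (adjusted p = 1.55e-05). Flexor over supraspinatus was -0.83 ± 0.31 (adjusted p = 0.0398), a call lost with library totals, without a filter, and without flexor 2, flexor 3, supraspinatus 1 or supraspinatus 4 (-0.85 to -0.47, adjusted p = 0.0591 to 0.227 over those 4 libraries). It was weakest, at -0.47, without supraspinatus 4.

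Aqp7, the glycerol channel of the adipocyte membrane, had 2.22, 3.35, 2.92 and 5.53 CPM in the flexor libraries and 5.22, 7.95, 3.04 and 19.3 CPM in the supraspinatus libraries, against 154, 81.8, 100.4 and 40.5 CPM in the Achilles and 88.7, 142, 138 and 46.6 CPM in the patellar libraries. Forelimb and hindlimb libraries did not overlap, and supraspinatus 4 was the highest forelimb library. The forelimb log2 fold change was -4.15 ± 0.42 (adjusted p = 1.5e-06). Pck1, which makes glycerol backbone from pyruvate in fat, averaged 25.9 ± 5.28 CPM in flexor libraries and 4.02 ± 3.34 CPM in supraspinatus libraries, against 130.4 ± 126 CPM in Achilles libraries and 117 ± 72.7 CPM in patellar libraries (SD, n = 4 each). Achilles 1 at 319 CPM and patellar 1 at 225 CPM raised the hindlimb means. Forelimb over hindlimb, the log2 fold change was -3.60 ± 0.51 (adjusted p = 3.2e-05), and flexor over supraspinatus was 2.69 ± 0.70 (adjusted p = 0.00572).

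Both measured genes of fatty acid uptake and activation were lower in the forelimb, and both were lower in flexor than in supraspinatus. Fabp5, the epidermal-type fatty acid binding protein, which adipocytes and macrophages also make, had 16.7, 20.1, 15.1 and 17.6 CPM in the flexor libraries and 41.3, 31.6, 48.3 and 41.3 CPM in the supraspinatus libraries, against 102.3, 101, 117 and 105 CPM in the Achilles and 54.6, 76.1, 72.9 and 55.5 CPM in the patellar libraries. The flexor and supraspinatus libraries and the hindlimb libraries formed 3 levels with no overlap, and Achilles was above patellar tendon in every library. Its forelimb log2 fold change was -1.64 ± 0.10 (adjusted p = 2.89e-08). By pairs it was -1.22 ± 0.14 for flexor over supraspinatus (adjusted p = 1.27e-05), -2.62 ± 0.15 for flexor over Achilles (adjusted p = 8.56e-08) and -1.90 ± 0.14 for flexor over patellar (adjusted p = 2.96e-07). Supraspinatus over Achilles was -1.39 ± 0.14 (adjusted p = 4.78e-06), and supraspinatus over patellar was -0.67 ± 0.14 (adjusted p = 0.000977).

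Acsl1, the acyl-CoA synthetase that activates long-chain fatty acids, had 187, 158, 87.9 and 168 CPM in the flexor libraries and 356, 401, 219.8 and 663 CPM in the supraspinatus libraries, against 1089, 491, 561 and 258 CPM in the Achilles and 479, 933, 929 and 285 CPM in the patellar libraries. Flexor libraries were below every library of the other tendons, while supraspinatus overlapped the hindlimb. The log2 fold change was -2.00 ± 0.47 for flexor over Achilles (adjusted p = 0.00313) and -2.13 ± 0.48 for flexor over patellar (adjusted p = 0.00188). Supraspinatus over Achilles (adjusted p = 0.338) and over patellar (adjusted p = 0.223) missed the threshold. Flexor over supraspinatus was -1.45 ± 0.47 (adjusted p = 0.0188), and without supraspinatus 4 it was -1.06 (adjusted p = 0.0914). Its log2 fold change in the forelimb was -1.34 ± 0.33 (adjusted p = 0.00274).

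**Figure D3:**
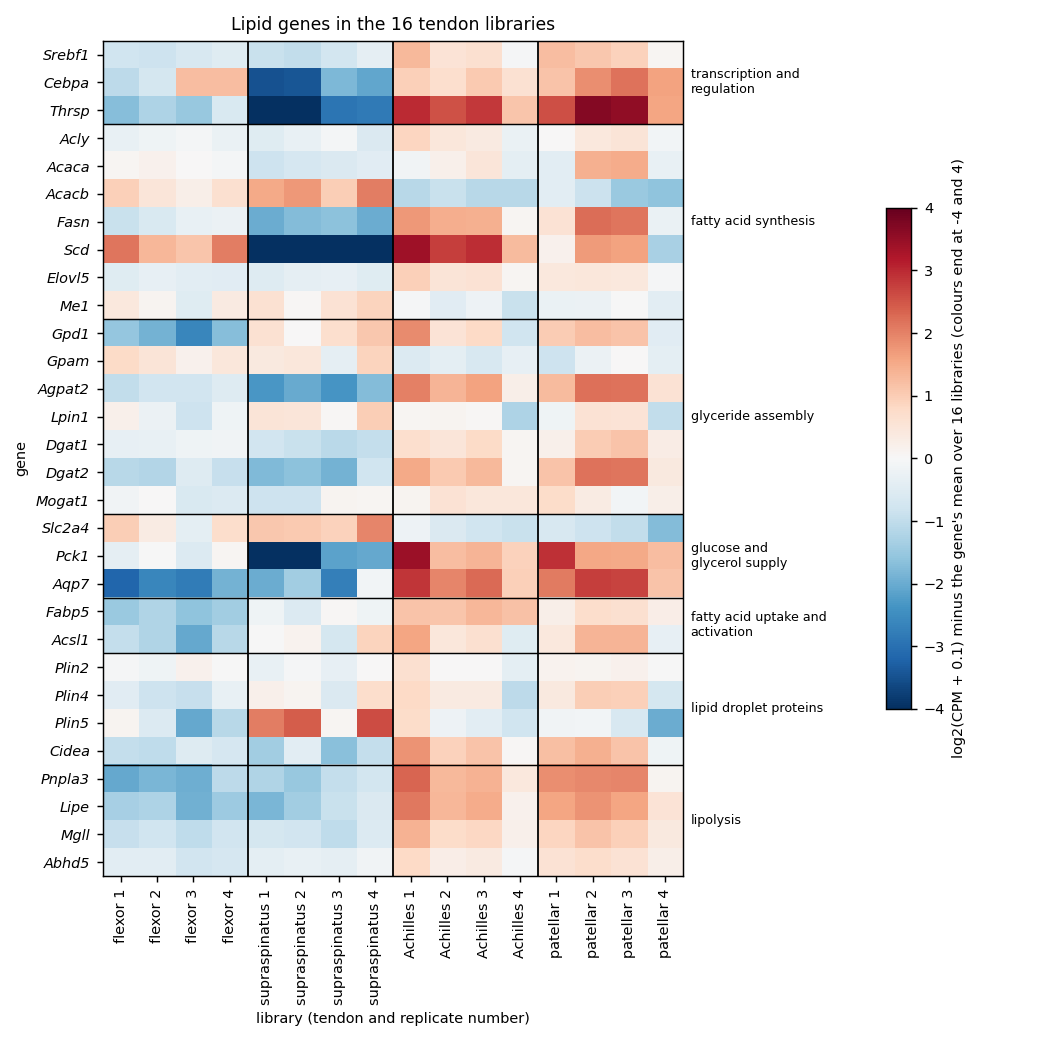
Log2(CPM + 0.1) of each tested lipid gene in each of the 16 libraries minus that gene's mean over all libraries (colour), with genes down the page by role and libraries across by tendon. Most genes are low in flexor and supraspinatus libraries, Acacb, Gpam and Slc2a4 are high there, and Achilles 4 and patellar 4 are the palest hindlimb libraries for many genes.

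Of the 4 lipid droplet proteins, 1 was lower, 1 higher and 2 not called in the forelimb. Cidea, which promotes fusion and growth of lipid droplets, had 5.57, 5.32, 7.45 and 6.8 CPM in the flexor libraries and 4.09, 8.03, 3.35 and 5.53 CPM in the supraspinatus libraries, against 37.9, 20.4, 24.1 and 11.1 CPM in the Achilles and 25.1, 29.3, 23.7 and 9.66 CPM in the patellar libraries. No forelimb library reached the hindlimb range, and the forelimb log2 fold change was -1.98 ± 0.27 (adjusted p = 2.34e-05). Ucp1, the defining gene of brown fat, where Cidea is also abundant in mouse, had 0 to 1 counts per library.

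Plin5, the perilipin of oxidative tissue, had 4.94, 3.13, 1.04 and 2.05 CPM in the flexor libraries and 19.4, 24.9, 4.83 and 28.5 CPM in the supraspinatus libraries, against 7.68, 3.97, 3.37 and 2.58 CPM in the Achilles and 4.14, 4.25, 2.93 and 1.08 CPM in the patellar libraries. In 3 supraspinatus libraries it was above every other library, whereas supraspinatus 3 lay among the other tendons. Flexor over supraspinatus was -2.80 ± 0.60 (adjusted p = 0.00148), supraspinatus over Achilles 2.14 ± 0.58 (adjusted p = 0.00701) and supraspinatus over patellar 2.65 ± 0.60 (adjusted p = 0.00175). For the forelimb average the log2 fold change of 0.99 ± 0.40 (adjusted p = 0.0458) was near the threshold. It lost its call with library totals, without a filter and in 10 of the 16 fits that left out 1 library (0.78 to 0.99, adjusted p = 0.0652 to 0.116), and flexor did not differ from either hindlimb tendon past the threshold.

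Plin2, the perilipin found on droplets in most cell types, had 79, 71.2, 91.6 and 79.9 CPM in the flexor libraries and 65.9, 77.4, 64.9 and 82.1 CPM in the supraspinatus libraries, against 126, 81.4, 82 and 62 CPM in the Achilles and 89.95, 86.8, 90.4 and 80.2 CPM in the patellar libraries. The ranges of all 4 tendons overlapped, and no difference among tendons passed the test (adjusted p = 0.387). Its forelimb log2 fold change was -0.19 ± 0.12 (adjusted p = 0.171). Plin4, a perilipin of adipocytes and muscle, had 14.2, 10.9, 10.3 and 16.1 CPM in the flexor libraries and 22.5, 21, 13 and 31.9 CPM in the supraspinatus libraries, against 34.1, 25.2, 25.5 and 9.49 CPM in the Achilles and 25.8, 39.2, 37.9 and 12.1 CPM in the patellar libraries. Flexor values overlapped those of each other tendon, with patellar 4 inside the flexor range and Achilles 4 below it. No difference among the 4 tendons passed the test (adjusted p = 0.0839), and the forelimb log2 fold change was -0.63 ± 0.28 (adjusted p = 0.0651). Flexor over patellar alone was -1.16 ± 0.40 (adjusted p = 0.0242), a call lost without flexor 2, flexor 3, patellar 2 or patellar 3 (-1.12 to -0.99, adjusted p = 0.0575 to 0.0703). With library totals in place of TMM, which put the median of all genes at -0.22, the forelimb value was -0.44 for Plin2 (adjusted p = 0.00524) and -0.89 for Plin4 (adjusted p = 0.0112).

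All 4 lipolysis genes tested were lower in the forelimb, and none was called between flexor and supraspinatus. Lipe, the hormone-sensitive lipase, had 38.7, 41.1, 25.5 and 35.1 CPM in the flexor libraries and 27.3, 36.5, 52 and 64.9 CPM in the supraspinatus libraries, against 412, 240.2, 268 and 109.7 CPM in the Achilles and 291, 338, 286 and 140.1 CPM in the patellar libraries. The limbs did not overlap, and Achilles 4 and patellar 4 were the lowest hindlimb libraries. The forelimb log2 fold change was -2.71 ± 0.27 (adjusted p = 1.33e-06).

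Mgll, the monoacylglycerol lipase that completes lipolysis, had 42.9, 46.5, 39.9 and 47.4 CPM in the flexor libraries and 49.5, 47.2, 40.0 and 55.4 CPM in the supraspinatus libraries, against 212, 135, 143 and 92.1 CPM in the Achilles and 147, 177, 155 and 105 CPM in the patellar libraries. The flexor and supraspinatus libraries overlapped, below all hindlimb libraries, and the log2 fold change was -1.66 ± 0.15 (adjusted p = 5.42e-07). Abhd5, the co-activator of the first lipase, averaged 52.9 ± 6.54 CPM in flexor libraries and 64.1 ± 5.43 CPM in supraspinatus libraries, against 101.9 ± 25.6 CPM in Achilles libraries and 113 ± 15.1 CPM in patellar libraries (SD, n = 4 each), a log2 fold change of -0.88 ± 0.11 (adjusted p = 1.02e-05). Pnpla3, a relative of that lipase induced with fat synthesis, averaged 4.42 ± 1.64 CPM in flexor libraries and 6.71 ± 1.51 CPM in supraspinatus libraries, against 40.8 ± 22 CPM in Achilles libraries and 44.2 ± 19.2 CPM in patellar libraries (SD, n = 4 each), a log2 fold change of -2.96 ± 0.31 (adjusted p = 1.96e-06).

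By pairs of tendons, each forelimb tendon against each hindlimb tendon gave 3 to 5 lipid genes higher and 18 to 19 lower. In flexor over Achilles 3 were higher and 19 lower, beside 47.7% of all genes called, 24.1% higher and 23.5% lower, and the median log2 fold change was -1.02 for the lipid genes and -0.01 for all genes. In flexor over patellar 3 were higher and 18 lower, beside 50.5% of all genes, 25.8% higher and 24.7% lower, with medians of -1.19 and 0.03. Supraspinatus over Achilles gave 5 higher and 19 lower, beside 50.1% of all genes, 24.7% higher and 25.4% lower, with medians of -1.19 and -0.05. For supraspinatus over patellar 5 were higher and 19 lower, beside 56.4% of all genes, 27.5% higher and 28.8% lower, with medians of -1.13 and -0.05. These comparisons share libraries. Acacb, Gpam and Slc2a4 were higher in all 4 of them, and Me1 and Plin5 in the 2 with supraspinatus.

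Between the forelimb tendons, flexor over supraspinatus gave 7 lipid genes higher and 6 lower, beside 47.7% of all genes called, 23.4% higher and 24.3% lower. The 7 higher genes were Scd, Cebpa, Pck1, Thrsp, Fasn, Agpat2 and Dgat1. The 6 lower genes were Plin5, Gpd1, Acsl1, Fabp5, Acacb and Slc2a4. The median was 0.00 for the lipid genes and -0.03 for all genes. With library totals in place of TMM the split was 9 higher and 4 lower, beside 38.9% of all genes higher and 10.8% lower, and the median of all genes was 0.31. With the adipocyte marker score (the mean log2 CPM of the 16 markers) as a covariate it was 2 higher, Cebpa and Scd, and 15 lower, beside 20.4% higher and 21% lower. That score ran from 3.462 to 4.408 in flexor and 1.221 to 2.953 in supraspinatus libraries, without overlap. The covariate fit therefore cannot separate the score from the tendon.

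Within the hindlimb, Achilles over patellar gave 1 lipid gene higher and 0 lower by edgeR, beside 5.16% of all genes, 3.1% higher and 2.06% lower. At an unadjusted p under 0.05 there were 2 higher and 0 lower, and the share of all genes at that threshold is not given here. DESeq2 also called 2 and 0, beside 11.7% of all genes called by DESeq2. The gene called by edgeR was Fabp5, with a log2 fold change of 0.72 ± 0.14 (adjusted p = 0.0117). The lipid gene median was -0.12 and that of all genes -0.01.

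In the authors' deposited table of edgeR comparisons, 29 of the 34 genes are listed. At an adjusted p under 0.05 that table called 20 of them between flexor and Achilles, 22 between flexor and patellar and 15 between flexor and supraspinatus. The authors' deposited table called 23 between supraspinatus and Achilles, 24 between supraspinatus and patellar and 1 between Achilles and patellar. Positive and negative fold changes numbered 16 and 4 (Achilles against flexor), 3 and 19 (flexor against patellar) and 7 and 8 (flexor against supraspinatus). They numbered 18 and 5 (Achilles against supraspinatus), 19 and 5 (patellar against supraspinatus) and 1 and 0 (Achilles against patellar). The share of all genes called in the authors' comparisons is not given here, so these counts have no background beside them.

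The lipid genes were next set beside the level of adipocyte markers. All 16 of those markers were lower in the forelimb, beside 28.5% of all genes lower, with a median log2 fold change of -4.82. Adipoq, the adipocyte hormone adiponectin, averaged 124 ± 37.9 CPM in flexor libraries and 11.7 ± 8.89 CPM in supraspinatus libraries, against 1299 ± 619 CPM in Achilles libraries and 1794 ± 639.5 CPM in patellar libraries (SD, n = 4 each). Adig was at 0 counts in flexor 1 and flexor 3. The markers did not set the forelimb tendons at the same level: 10 of 16 were higher and 2 lower in flexor over supraspinatus. Of all genes 23.4% were higher and 24.3% lower there. The 2 lower markers were Lpl and Adig. Lpl, the lipoprotein lipase that muscle also makes, accounted for much of the supraspinatus sum, at 519.8 ± 279 CPM against a sum of 856 ± 375 CPM (SD, n = 4). Between Achilles and patellar tendon none of the 16 passed by edgeR, beside 5.16% of all genes called. At an unadjusted p under 0.05 there were 0 higher and 2 lower, and the share of all genes at that threshold is not given here. Within the hindlimb, Achilles 4 had the lowest sum of its tendon, 4021 CPM, and patellar 4 the lowest of its tendon, 6097 CPM, the same libraries that were low for Thrsp, Srebf1, Scd, Agpat2 and Lipe. Not every lipid gene followed: among the Achilles libraries Gpam was highest in Achilles 4, and Fabp5 was lowest in Achilles 2.

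Each gene was then expressed per 1000 CPM of summed adipocyte markers. On that scale 20 of the 30 lipid genes had every forelimb library above every hindlimb library and 0 had every forelimb library below. That is no result about lipid genes, since 79.2% of all genes tested lay above in the same way. The sum of all 16 markers overlapped between flexor libraries, at 648.5 to 1212 CPM, and supraspinatus libraries, at 535.8 to 1397 CPM. Lpl, which muscle also expresses, averaged 519.8 CPM of the mean supraspinatus sum of 855.9 CPM. Sums without Lpl and Fabp4 were 434.6 to 827.4 CPM in flexor and 93.71 to 209.2 CPM in supraspinatus and did not overlap. Ratios to this smaller sum and to Adipoq alone were added after seeing the data. Leaving out the 2 markers put 22 of 30 lipid genes above, beside 87.7% of all genes, and Adipoq alone put 24 above, beside 89%. With all 16 markers, the 10 genes whose limbs overlapped were Cebpa, Thrsp, Fasn, Scd, Agpat2, Pck1, Aqp7, Fabp5, Pnpla3 and Lipe.

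**Figure D4:**
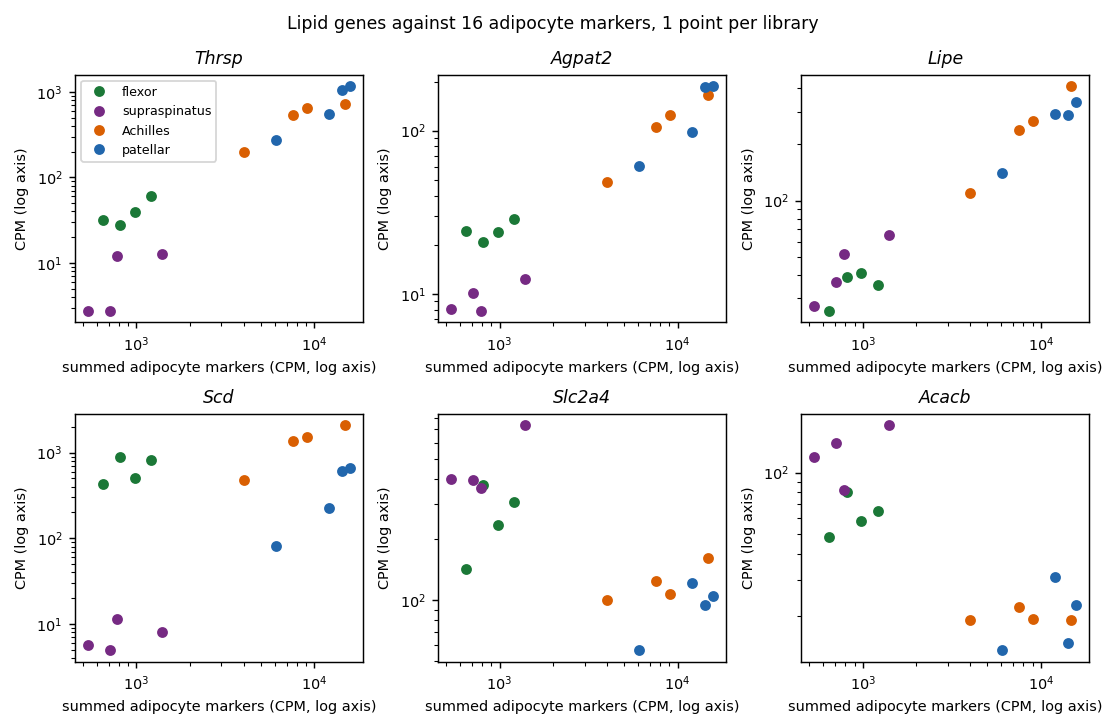
CPM of 6 lipid genes (vertical, log scale) against the summed CPM of 16 adipocyte markers (horizontal, log scale) in the 16 libraries, coloured by tendon. Thrsp, Agpat2 and Lipe are low where the marker sum is low, Scd is lower in supraspinatus than in flexor libraries, whose marker sums overlap only with Lpl and Fabp4 included, and Slc2a4 and Acacb are highest in the forelimb libraries.

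Per 1000 CPM of adipocyte markers, Thrsp was 43.2 ± 7.37 in flexor and 8.39 ± 5.23 in supraspinatus, against 60.6 ± 13 in Achilles and 60.1 ± 17.2 in patellar (CPM, SD, n = 4 each). Flexor libraries overlapped the hindlimb range on this scale and supraspinatus libraries stayed below it, a placement that depends on the markers in the sum. Without Lpl and Fabp4 in the sum, Thrsp ran from 51.9 to 73.1 in flexor and 18.6 to 68.5 in supraspinatus, against 69.7 to 99 in Achilles and 60.2 to 102.3 in patellar libraries, so the supraspinatus and patellar ranges overlapped. Per CPM of Adipoq alone, Thrsp ran from 0.267 to 0.371 in flexor and 0.544 to 0.871 in supraspinatus, against 0.308 to 0.504 in Achilles and 0.283 to 0.495 in patellar libraries, so supraspinatus then lay above all hindlimb libraries. Agpat2 was 27.8 ± 6.48 in flexor and 12.1 ± 3.14 in supraspinatus, against 12.7 ± 1.31 in Achilles and 10.8 ± 2.14 in patellar. Here the supraspinatus libraries overlapped the hindlimb ones and the flexor libraries lay above them. Without Lpl and Fabp4 in the sum the overlap was lost, with 34.5 to 55.8 in flexor and 37.6 to 86.9 in supraspinatus, against 15.9 to 18.8 in Achilles and 10.7 to 17.6 in patellar libraries. With all 16 markers, Scd was 736 ± 244 in flexor and 9.43 ± 3.93 in supraspinatus, against 152 ± 27.2 in Achilles and 29.1 ± 15.2 in patellar, with all flexor libraries above the hindlimb ones and the supraspinatus libraries overlapping the patellar ones. Per CPM of Adipoq alone, supraspinatus Scd, at 0.386 to 1.805, lay above patellar libraries, at 0.0839 to 0.282, and overlapped Achilles libraries, at 0.744 to 1.269. With all 16 markers, Lipe was 39.5 ± 7.83 in flexor and 53.8 ± 8.66 in supraspinatus, against 29.1 ± 1.98 in Achilles and 22.2 ± 1.79 in patellar, which placed the forelimb means above the hindlimb means. Slc2a4 was 294 ± 112 in flexor and 569 ± 120.3 in supraspinatus, against 16.1 ± 6.44 in Achilles and 8.2 ± 1.79 in patellar, with all 8 hindlimb libraries below every forelimb one.

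With the adipocyte marker score as a covariate in the fit, 0 lipid genes were lower and 2 higher in the forelimb, and calls over all genes fell to 4.79%. The 2 were Me1, with a log2 fold change of 2.13 (adjusted p = 0.0351), and Slc2a4, with 3.74 (adjusted p = 0.0179). The median standard error of the lipid genes was 0.8 in that fit, against 0.263 without the covariate. The score ran from 1.221 to 4.408 in forelimb and 6.334 to 8.157 in hindlimb libraries, so the fit cannot separate score from limb. When the muscle marker score was the covariate, 9 lipid genes were lower and 2 higher, with 17.4% of all genes called. The 9 were Thrsp, Agpat2, Mogat1, Pck1, Aqp7, Fabp5, Pnpla3, Lipe and Mgll, and the 2 were Acacb and Slc2a4. Whether the fat or the muscle in a sample, or the tendon cells themselves, set these levels cannot be told apart here.

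Markers of other cell types were also measured. The 6 endothelial markers tested were all lower in the forelimb, summing to 315 to 518.4 CPM in flexor and 471.2 to 946.6 CPM in supraspinatus, against 964.9 to 1356 CPM in Achilles and 1205 to 1963 CPM in patellar libraries. Schwann cell markers summed to 2037 to 3623 CPM in flexor and 623.8 to 696.5 CPM in supraspinatus, against 891 to 7494 CPM in Achilles and 605.5 to 1033 CPM in patellar libraries. The highest of these was Achilles 1, the library with the most Scd, Gpd1, Acsl1 and Pck1 RNA. Among the Achilles libraries it also had the highest adipocyte marker sum, 14830 CPM, and the lowest muscle marker sum, 326.4 CPM. Macrophage markers summed to 1099 to 2003 CPM in flexor and 698.5 to 1549 CPM in supraspinatus, against 1072 to 1928 CPM in Achilles and 874.4 to 1622 CPM in patellar libraries. Of 8 macrophage markers tested, 0 were higher and 2 lower in the forelimb. Beside these endothelial and macrophage counts, 30.3% of all genes were higher and 28.5% lower in the forelimb. The 7 keratinocyte markers measured stayed between 6.4 and 15.3 CPM in sum. The part of these cell types in the lipid gene differences was not tested.

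Of 13 other genes of fatty acid synthesis and its control, 3 were higher and 7 lower in the forelimb, and the median was -0.36 on the log2 scale. Among all genes 30.3% were higher and 28.5% lower, with a median of 0.02. Slc25a1, the citrate carrier that feeds Acly, was -1.35 ± 0.17 (adjusted p = 1.08e-05), and Insig2, a brake on SREBP processing, was 0.59 ± 0.067 (adjusted p = 3.56e-06). Fads1, a fatty acid desaturase, was -0.92 ± 0.11 (adjusted p = 8.79e-06), and Nr1h3, which encodes the oxysterol receptor LXRα, was -0.86 ± 0.12 (adjusted p = 2.53e-05).

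Of 23 further genes of uptake, storage and lipolysis, 4 were higher and 13 lower, with a median of -0.52, beside 30.3% of all genes higher and 28.5% lower. Angptl4, a secreted inhibitor of lipoprotein lipase, was -4.30 ± 0.30 (adjusted p = 6.66e-08), and Gpihbp1, which anchors that lipase on capillary walls, was -4.10 ± 0.32 (adjusted p = 1.69e-07). Lpin3, a phosphatidate phosphatase, was -0.76 ± 0.075 (adjusted p = 1.17e-06), and Agpat1 was 0.31 ± 0.077 (adjusted p = 0.00302). Mean Agpat1 CPM was 105.5 for supraspinatus, 65.0 for patellar, 60.9 for Achilles and 57.7 for flexor. Flexor was thus the lowest tendon, and the higher forelimb value came from supraspinatus alone.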

How the data were processed

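RNA from 4 tendons was sequenced in 16 libraries, 4 per tendon, grouped by the tendon named in the labels. The authors deposited whole-number read counts per Ensembl gene and a table of their own comparisons with log2 fold changes and adjusted p-values. HISAT2, FastQC, edgeR and build rn6 are named without versions or roles, per the submitters' processing notes. How reads were counted, with which annotation and strand, is not given in the sources used here, so genes that overlap or have close copies, such as Scd and Scd2, may share reads. RNA was purified with a column kit and DNase, per the labels' protocols.

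From the deposited counts, genes were kept by filterByExpr (minimum count 10, minimum total 15), which left 16948, and scaled by TMM. CPM uses the TMM-scaled library size. edgeR 4.0.16 in R 4.3.3 fitted all 16 libraries with 1 coefficient per tendon (12 residual degrees of freedom) and its quasi-likelihood test gave p-values, adjusted by Benjamini-Hochberg over all genes at a threshold of 0.05. Log2 fold changes were taken with edgeR's default prior count. A prior count of 2 was used only for the log2 CPM of the marker scores and of the correlations between libraries. The standard error is the size of the log2 fold change divided by the square root of F. Forelimb and hindlimb values average the log2 levels of 2 tendons each. The fit was tested on simulated data. Library totals ran from 63397591 to 102491699 counts, and a count of 0 was read against a floor of 3 counts per library. Precision is otherwise set by the 4 libraries per tendon.

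The genes and lists were chosen with earlier results of these data known. Values in every library are given for the 2 genes per role with the smallest p among the tendons, at 1 CPM or more, for genes against the common direction and for those not differing among tendons; sums of markers are sums of CPM, and marker scores are mean log2 CPM. Alternatives were RLE size factors, library totals, DESeq2 1.42.0, no filter, a stricter filter (1 CPM in 8 libraries), a replicate block, the muscle or adipocyte marker score as a covariate, and each library left out. Ratios to the adipocyte marker sum were also taken without Lpl and Fabp4 and to Adipoq alone, alternatives chosen after seeing the data. Promoter windows came from RefSeq (GRCr8); no coordinates were converted. Figures were drawn with matplotlib 3.10.9.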

Additional observations from a re-analysis of the deposited data

Results flagged for a closer look

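In 8 of the 120 sets of 4 libraries checked (6.67%), 1 library stood far from the other 3 of its tendon, where chance alone gives about 1 in 20. Acacb was 22 CPM in Achilles 2, against 19 to 19.2 CPM in the other Achilles libraries, a narrow group. Elovl5 was 94.5 CPM in patellar 4, against 129 to 132 CPM in the others. Lpin1 was 20.8 CPM in Achilles 4, against 51 to 52.5 CPM. Slc2a4 was 735 CPM in supraspinatus 4, the library with the highest muscle marker sum, against 358 to 396 CPM in the other supraspinatus libraries. Pck1 was 319 CPM in Achilles 1, against 56.4 to 75.9 CPM, and 225 CPM in patellar 1, against 70.3 to 87.3 CPM. Pnpla3 was 6.86 CPM in flexor 4, against 3.33 to 3.93 CPM, and 15.5 CPM in patellar 4, against 51.7 to 55.7 CPM. Achilles 4 and patellar 4 had the lowest adipocyte marker sums of their tendons.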

How the results depend on the processing

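Of 59 single-gene results, 54 were called. RLE size factors and the replicate block changed no call, and none reversed with DESeq2, without a filter, with the stricter filter or with 1 library left out. Most changes came with the marker covariates, where the median standard error of the forelimb values was 0.8 (adipocyte) and 0.496 (muscle), against 0.263 without them. The adipocyte score ran from 1.221 to 4.408 in forelimb and 6.334 to 8.157 in hindlimb libraries, without overlap. The muscle score ran from 7.855 to 12.61 in forelimb and 3.012 to 7.959 in hindlimb libraries. Score and limb are thus hard to separate in these fits, and the sign changes below carry that limit.

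With the adipocyte score, lipid genes called lower numbered 1 in flexor over Achilles, 1 in flexor over patellar, 15 in flexor over supraspinatus and 0 in supraspinatus over Achilles, supraspinatus over patellar and forelimb over hindlimb; called higher were 2 in flexor over supraspinatus, 2 in Achilles over patellar and 2 in the forelimb. In the same fits 41.4% of all genes were called in flexor over supraspinatus, 5.56% in Achilles over patellar, 4.79% in the forelimb and 6.7% to 14.5% in the other pairs. With the muscle score, 3 were higher in flexor over supraspinatus, 1 higher and 4 lower in supraspinatus over Achilles, 2 higher and 4 lower in supraspinatus over patellar, and 2 higher and 9 lower in the forelimb, beside 35.8%, 10.9%, 11.2% and 17.4% of all genes called. Library totals gave 3 higher in each of supraspinatus over Achilles and over patellar, where 13.4% and 14.9% of all genes were higher and their median was -0.466 and -0.46. DESeq2, and leaving out Achilles 4, gave 2 higher in Achilles over patellar; DESeq2 called 11.7% of all genes there.

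With 1 library left out, 25 to 27 lipid genes differed among tendons, beside 71.9% to 76.3% of all genes. Higher and lower calls ran from 3 to 4 and 17 to 20 in flexor over Achilles, 3 to 3 and 17 to 20 in flexor over patellar, 6 to 7 and 4 to 8 in flexor over supraspinatus, 5 to 5 and 18 to 19 in supraspinatus over Achilles, 4 to 5 and 18 to 20 in supraspinatus over patellar, 1 to 2 and 0 to 0 in Achilles over patellar, and 4 to 5 and 21 to 24 in the forelimb. Of all genes, 55.5% to 58.4% were called in the forelimb and 42% to 57.9% in pairs of a forelimb and a hindlimb tendon. Flexor over supraspinatus gave 40% to 50% of all genes, and Achilles over patellar 1.99% to 8.22%.

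With the adipocyte score the forelimb log2 fold change turned positive, with no call, for Srebf1 (0.81), Thrsp (0.90), Acly (0.70), Acaca (1.11), Fasn (0.59), Scd (1.58), Elovl5 (0.25), Gpd1 (2.55), Agpat2 (0.019), Dgat2 (0.32), Mogat1 (0.30), Pck1 (2.27), Aqp7 (0.28), Acsl1 (2.29), Plin2 (0.73), Plin4 (2.19), Cidea (0.25), Pnpla3 (0.84), Lipe (1.04) and Abhd5 (0.28). So did flexor over Achilles for Gpd1 (0.26), Acsl1 (0.69) and Scd (2.59), flexor over patellar for Gpd1 (0.70), Acsl1 (0.99) and Plin4 (1.27), and supraspinatus over patellar for Scd (0.57) and Fabp5 (0.20). With the muscle score Acly (0.14), Acaca (0.002), Plin2 (0.31) and Plin4 (0.015) turned. With library totals Lpin1 turned to -0.071.

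The replicate block gave 26 lipid genes among tendons, beside 74.5% of all genes. It gave 5 higher and 22 lower in the forelimb, beside 30.7% of all genes higher and 28% lower. By pairs it gave 3 and 18 (flexor over Achilles), 3 and 19 (flexor over patellar), 7 and 6 (flexor over supraspinatus), 5 and 18 (supraspinatus over Achilles), 5 and 19 (supraspinatus over patellar) and 1 and 0 (Achilles over patellar). In the same order 47.4%, 51.3%, 47.6%, 49.3%, 55.7% and 4.93% of all genes were called. Deviations of same-numbered libraries correlated at -0.21 to 0.37 over 24 pairs, with 9 over 0.1. Their median was 0.032, against -0.01 for other numbers. These values cannot decide whether a number stands for the same rat, and the main fit used no block.

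Low counts limit some genes: Mogat1 rests on 24 to 93 counts per library, and Elovl6 and Pnpla2 were too low to test. The reason for these low counts was not tested.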

Other observations

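Cholesterol synthesis genes gave another split than the fat genes, a difference that was not tested. Of 19 genes of that pathway tested, 6 were higher and 2 lower in the forelimb, with a median log2 fold change of 0.09. That was 42.1% of them called, beside 58.8% of all genes, 30.3% higher and 28.5% lower, with a median of 0.02. In Achilles over patellar tendon, 6 of the 19 were higher and 0 lower (edgeR quasi-likelihood test), beside 5.16% of all genes called. Of the 30 fat genes, 1 was called there. At an unadjusted p under 0.05, 13 of the 19 were higher and 0 lower. The share of all genes at that unadjusted threshold is not given here. The 6 called by adjusted p included Sqle, the squalene epoxidase, at 1.30 ± 0.21 (adjusted p = 0.00419), Hsd17b7 at 1.29 ± 0.22 (adjusted p = 0.00599) and Cyp51 at 0.79 ± 0.18 (adjusted p = 0.0227). In supraspinatus over patellar tendon 10 were higher and 2 lower, 63.2% called, beside 56.4% of all genes, 27.5% higher and 28.8% lower. Sqle, Hsd17b7 and Cyp51 were chosen as examples after their values were seen.

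Of the brown adipocyte list, 4 genes were tested, with 3 higher and 1 lower in the forelimb, beside 30.3% of all genes higher and 28.5% lower. Ppargc1a, a coactivator of mitochondrial genes, averaged 10.9 ± 4.32 CPM in flexor libraries and 34.7 ± 15.3 CPM in supraspinatus libraries, against 2.58 ± 1.1 CPM in Achilles libraries and 2.67 ± 2.06 CPM in patellar libraries, and Cpt1b, the muscle form of the carnitine transferase, averaged 113 ± 50.8 CPM in flexor libraries and 330.3 ± 128 CPM in supraspinatus libraries, against 28.2 ± 11.8 CPM in Achilles libraries and 14.2 ± 13.7 CPM in patellar libraries (SD, n = 4 each). Both are also made in skeletal muscle, and Ucp1 had 0 to 1 counts per library. Elovl3 and Otop1 were tested too, at low levels. Mean Elovl3 CPM was highest for Achilles, at 0.626, then 0.365 for supraspinatus, 0.288 for flexor and 0.00659 for patellar. Its patellar libraries held 0 to 1 counts each. Mean Otop1 CPM was 1.48 for flexor, 1.38 for Achilles, 0.708 for patellar and 0.0588 for supraspinatus.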
